A study of Mus musculus with 8 samples.

Results

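The genes described are the Phlda family and further effectors of the tumour suppressor p53: Phlda1, Phlda2, Phlda3, Aen, Perp, Ei24, Psrc1, Gtse1, Sulf2 and Dcxr. They were taken as a list of 10 gene symbols, and a probe of the array belonged to a gene when its RefSeq accession carried that symbol. All 10 had a probe, 8 of them gave a signal that could be tested, and 24921 genes or transcripts were tested in all. The tissue was fresh-frozen liver of female B6C3F1 mice, which were bought at 5 to 6 weeks of age and acclimatized for at least 7 days. The vehicle group, 4 animals numbered 2, 3, 4 and 6, received corn oil by gavage. The furan group, 4 animals numbered 41, 42, 43 and 44, received furan in corn oil at a dose of 8 mg/kg. Furan arises when food is heated, and in rodents it damages the liver and causes tumours there. Both groups were dosed for 21 days and killed 4 hours after the last dose, and the RNA of each animal was hybridised to 1 one-colour Agilent array.

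The p53 protein is a transcription factor that accumulates after DNA damage and other stress and switches on genes for cell cycle arrest, repair and cell death. The genes described here act downstream of those decisions, or near them. PHLDA3 binds membrane phosphoinositides through a pleckstrin homology domain and so keeps the survival kinase Akt from being activated, and its relatives PHLDA1 and PHLDA2 carry the same kind of domain. Others of the set act on DNA in dying cells, on cell junctions, on the endoplasmic reticulum, on microtubules, on the cell surface and in sugar metabolism.

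Phlda3 and Aen rose after furan, Phlda3 by 12.3-fold and Aen by 2.92-fold. Of the 8 tested genes these 2 were higher past an adjusted p of 0.05 and 0 were lower, where 2.87% of all tested genes were called higher and 4.18% were called in either direction. The other 6 tested genes, Phlda1, Perp, Ei24, Psrc1, Sulf2 and Dcxr, did not pass, with log2 fold changes from -0.17 to 0.34. Phlda2 and Gtse1 were not well above background on any array and could not be tested. In bulk liver RNA a change in the number of cells of a type and a change in RNA per cell cannot be told apart.

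A level here is the log2 signal of a probe after subtraction of its array's 75th percentile, each change is furan minus vehicle, and levels of different genes are not compared because each probe has its own brightness. Tests were made with limma over all 24921 features, with Benjamini-Hochberg adjustment, and errors of changes are standard errors. The median log2 fold change was 0.25 over the 8 tested genes and -0.09 over all tested features. The array of vehicle replicate 2 stood apart, with 86.2% of its spots well above background against 55.1% to 69.4% on the others, and the changes of Ei24, Psrc1, Sulf2 and Dcxr are also given without it. Of all calls, 714 were higher and 327 lower, a share higher of 68.6% that was 98.8% with arrays shifted to their medians, 88.1% without a shift and 49.2% when arrays were aligned on the brightest 25% of genes. With the median shift the median log2 fold change of all features was 0.39. The confidence intervals below are for the main scaling. That shift placed the changes of Phlda3, Aen, Perp, Ei24, Sulf2 and Dcxr above their intervals. Hepatocyte markers such as Alb and Cyp2e1 were present on all arrays, with log2 fold changes of -0.02 and -0.11.

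The start regions of the genes are shown because the set was taken as p53 effectors, and a p53 site may lie there or elsewhere. RefSeq windows on GRCm38.p6, running from 250 bases before to 50 after each annotated start, were at hand for 8 of the 10 genes. Phlda1 and Perp had no entry. Sequence outside the windows was not searched, so a gene without a match here may have one elsewhere. The p53 consensus decamer, which is its own reverse complement, was searched as the exact pattern RRRCWWGYYY. There R is A or G, W is A or T, and Y is C or T. The decamer occurred in windows of Aen, Ei24 and Gtse1, and in 9.55% of the 27025 genes with a window. A pair of decamers at most 1 base apart, with at most 3 mismatches and both core C and G bases intact, occurred in Aen, Gtse1 and Dcxr, and in 3.27% of all genes. In the sites below the capitals mark an exact decamer.
Aen, chr7:78895927-78895956, plus strand: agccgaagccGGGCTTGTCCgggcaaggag
Ei24, chr9:36797325-36797354, minus strand: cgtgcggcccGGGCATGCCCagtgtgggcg
Gtse1, chr15:85859945-85859974, plus strand: gagcaagttgGGGCTTGCCTctgacttgcc
Dcxr, chr11:120727386-120727406, minus strand: agccttgcctcggtcacgccc

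The Aen decamer began 10 bases after 1 annotated start, which is position -121 relative to the other. Its neighbouring decamer had 3 mismatches and followed without a spacer. In Gtse1 the pair had 1 mismatch and no spacer, and its first decamer began 1 base before an annotated start. The Ei24 decamer began 10 bases before the start and had no near-complete partner. The Dcxr pair held 3 mismatches and a spacer of 1 base. A match of letters is a description of the sequence only.

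The 250 bases before the start of Phlda3 and before the first of 2 annotated starts of Aen, the genes that rose, are printed next. Neither stretch holds an exact decamer, so they have no capitals. The 250 bases before the second Aen start, chr7:78895808-78896057, overlap the first stretch and do hold the decamer shown above.
Phlda3, chr1:135765835-135766084, plus strand: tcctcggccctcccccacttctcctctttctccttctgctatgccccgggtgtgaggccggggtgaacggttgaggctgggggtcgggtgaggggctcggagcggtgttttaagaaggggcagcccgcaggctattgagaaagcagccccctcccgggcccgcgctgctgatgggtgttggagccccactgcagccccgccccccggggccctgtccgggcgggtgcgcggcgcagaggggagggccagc
Aen, chr7:78895677-78895926, plus strand: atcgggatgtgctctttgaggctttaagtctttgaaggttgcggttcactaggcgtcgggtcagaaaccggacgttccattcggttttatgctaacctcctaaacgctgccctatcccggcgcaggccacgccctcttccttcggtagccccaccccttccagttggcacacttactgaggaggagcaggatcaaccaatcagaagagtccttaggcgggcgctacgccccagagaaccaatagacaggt

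The Phlda3 window was the richest of the member windows in G and C, at 71.7%, while the others ranged from 50.7% to 66.3% and the median of all windows was 52.7%. Of the 12 member windows 11 had more CG dinucleotides than the median window, which had 7. The cell cycle motif TTTGAA or TTCGAA, on either strand, occurred in Aen, Phlda2 and Psrc1, against 21.7% of all genes. The AP-1 motif TGANTCA occurred in 0 of the 8 genes, against 8.97% of all, and TATAAA, on either strand, in Phlda2 and Sulf2, against 15.7%. These matches were not weighed against the changes in expression.

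Phlda3 showed the largest change of the family. Its level was -0.48, -0.73, -0.57 and -0.74 on the vehicle arrays of replicates 2, 3, 4 and 6. On the furan arrays of replicates 41, 42, 43 and 44 it was 2.56, 2.82, 3.53 and 3.07. All furan arrays lay above all vehicle arrays, by at least 3.04 on the log2 scale, and the furan animals spread more widely than the controls. The mean went from -0.63 ± 0.13 (SD, n = 4) to 3.00 ± 0.42 (SD, n = 4). The log2 change of 3.63 ± 0.20 had a 95% confidence interval of 3.16 to 4.09, that is 8.94-fold to 17.1-fold (limma adjusted p = 0.000712). Before scaling, the processed signal of its probe ran from 203 to 329 in the controls and from 2683 to 4833 after furan. Among all tested features Phlda3 ranked 6 by the size of its increase and 4 by its p-value.

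**Figure D1:**
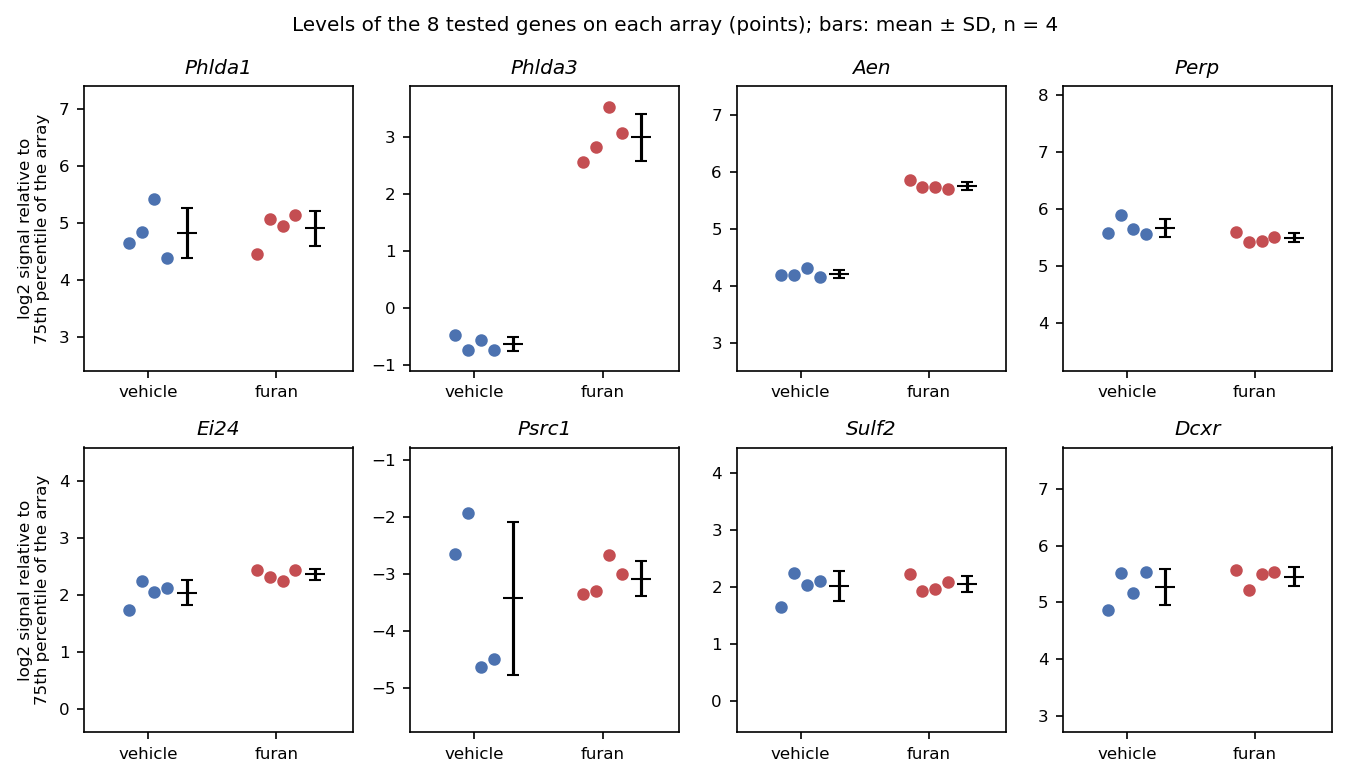
Levels of the 8 tested genes (y axis, log2 signal relative to the 75th percentile of the array; each panel spans the same number of log2 units) on the 4 vehicle and 4 furan arrays, with mean and SD beside the points. Phlda3 and Aen separate completely, Ei24 separates by only 0.01, and the other 5 genes overlap.

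Phlda1, whose product is induced by stress and growth signals and has been linked to cell death, did not pass. Its vehicle levels were 4.65, 4.84, 5.43 and 4.38, and its furan levels were 4.46, 5.07, 4.95 and 5.14. The groups overlapped throughout, and the lowest and highest values of all 8 were both vehicle animals. The change was 0.08 ± 0.25, with a confidence interval of -0.49 to 0.65 (adjusted p = 0.846). The data therefore allow anything from a drop to 0.712-fold to a rise of 1.57-fold.

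The change of Phlda3 was larger than that of its paralogue Phlda1. Within an array, the Phlda3 level minus the Phlda1 level was -5.13, -5.57, -6.00 and -5.11 in the controls and -1.90, -2.25, -1.41 and -2.07 after furan. The mean of this difference moved by 3.55 between the groups, which did not overlap (exact permutation test, 2-sided, p = 0.0286, the smallest that 70 divisions of the arrays can give). It was the only pair compared, since Phlda2 had no kept probe. Divisions that respect the slide row or the slide column gave p of 0.0556 and 0.125, again the smallest possible there. Phlda3 alone separated the groups by 3.04, more than the whole range of Phlda1, from 4.38 to 5.43. The separation of the difference, and so its p, followed from the Phlda3 levels and is no further test.

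Phlda2, an imprinted gene whose product restrains growth of the placenta, gave processed signals of 3.04 to 5.49 on the 8 arrays. The lowest signal that counted as well above background was between 14.3 and 26.6, depending on the array, so no level or fold can be given for this gene. In the authors' deposited table the Phlda2 probe had 5.14, 5.41, 5.18 and 5.45 for the vehicle and 5.54, 5.71, 5.61 and 5.72 for the furan animals, without overlap. Only 0.778% of the probes in that table had a lower mean, so these values lie in its dimmest range. A list of 14 neighbours of Phlda2, in or near the imprinted Kcnq1 domain, included H19 and Igf2 of the adjacent imprinted domain. All 14 were tested in limma, with 0 past the threshold, 2 at an unadjusted p under 0.05 and a median log2 fold change of 0.08. H19 had the smallest p of the list, with a log2 fold change of 0.82 (limma adjusted p = 0.0680). The brightest of them, Slc22a18 and Cd81, had log2 fold changes of -0.07 and 0.11.

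Aen encodes a nuclease that p53 induces and that helps to digest DNA in dying cells. Its level was 4.18, 4.18, 4.31 and 4.16 in the controls and 5.85, 5.74, 5.73 and 5.69 after furan. The groups were 1.38 apart at their closest, with an SD of 0.07 in each. The change was 1.55 ± 0.08, with a confidence interval of 1.36 to 1.73 (limma adjusted p = 0.000559), and Aen ranked 3 of all features by p-value and 65 by the size of its increase. A second Aen probe with the same accession gave 3.93, 3.96, 4.07 and 3.99 in the controls and 5.60, 5.47, 5.46 and 5.45 after furan. Its change, 1.51 ± 0.08 (adjusted p = 0.000839 in a fit of all 33848 kept probes), lay within the standard error of the first. Of 11 other exonuclease genes fixed as a list, 0 passed (limma; 3 at an unadjusted p under 0.05), with a median of -0.04.

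**Figure D2:**
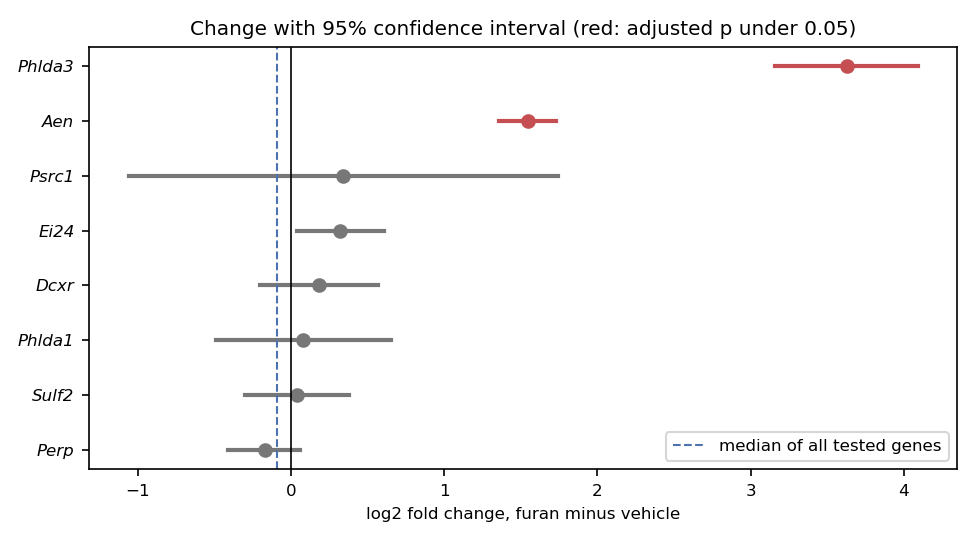
Log2 fold change of each tested gene, furan minus vehicle (x axis), with its 95% confidence interval from limma; the dashed line marks the median of all tested genes at -0.09. The intervals of Phlda3 (3.16 to 4.09) and Aen (1.36 to 1.73) lie apart from those of the other genes, except that the wide interval of Psrc1 reaches 1.74.

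Perp, a tetraspan membrane protein of desmosomes with a part in p53-dependent cell death, did not pass. Its vehicle levels were 5.57, 5.89, 5.64 and 5.55 and its furan levels 5.59, 5.42, 5.44 and 5.51. With the main scaling it was the only tested gene of the set with a negative log2 fold change. That change was -0.17 ± 0.10, with a confidence interval of -0.41 to 0.06 (adjusted p = 0.323). The furan arrays of replicates 42, 43 and 44 lay below every vehicle array, and that of replicate 41 lay above those of vehicle replicates 2 and 6. The direction was not stable to scaling, with 0.31 under the median shift and -0.29 in the authors' deposited table (adjusted p = 0.678 and 0.111). Phlda1 and Sulf2 also changed sign, at -0.04 and -0.05 with quantile normalization and 0.57 and 0.53 with the median shift. Of 16 tested desmosome and related genes, 1 rose and 1 fell. They were Evpl, which encodes envoplakin, at 0.48 ± 0.11, and Emp2, an epithelial membrane protein gene, at -0.73 ± 0.14. The Evpl call held in 0 of 8 fits without 1 array and the Emp2 call only without vehicle replicate 2.

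Ei24, an endoplasmic reticulum membrane protein needed for autophagy, came nearest to the threshold of the genes that missed it. Its levels were 1.74, 2.25, 2.06 and 2.13 in the controls and 2.45, 2.32, 2.26 and 2.45 after furan. The highest control and the lowest furan animal were only 0.01 apart. Without overlap of the groups it joined Phlda3 and Aen, so that 3 of 8 genes had separated groups, against 18.1% of all tested features. The change was 0.32 ± 0.12, with a confidence interval of 0.04 to 0.61, an unadjusted p of 0.0316 and an adjusted p of 0.170 in limma. With the median shift the log2 fold change was 0.81, above the upper end of that interval. With Ei24, 3 of 8 tested genes had an unadjusted p under 0.05, against 23.8% of all features. The lowest value belonged to vehicle replicate 2, and without that array the change was 0.22 (adjusted p = 0.218). Among 26 autophagy genes 1 rose, Vmp1, a partner of the same membrane process, at 0.47 ± 0.09, and 0 fell. The Vmp1 call held only without vehicle replicates 2 and 4 among the 8 fits that left out an array.

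Psrc1, a microtubule protein of the mitotic spindle that p53 can regulate, was dim. Its probe was well above background on all 4 furan arrays and on 2 of 4 vehicle arrays, those of replicates 2 and 3. The vehicle levels were -2.64, -1.93, -4.62 and -4.49, and the furan levels -3.34, -3.30, -2.67 and -3.00. The furan animals lay between the higher and the lower pair of controls. The change was 0.34 ± 0.61, with a confidence interval of -1.06 to 1.74 (adjusted p = 0.728), the widest of the set. Without vehicle replicate 4 or 6 the log2 fold change was -0.06 or -0.01, and without replicate 2 or 3 it was 0.60 or 0.84.

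Gtse1, which binds microtubules in dividing cells and moves p53 out of the nucleus, had processed signals of 3.28 to 5.87. These were below the detection bound on each array of both groups, so no fold is given. In the authors' deposited table its values were 5.26, 5.57, 5.39 and 5.42 for the controls and 5.55, 5.84, 5.56 and 5.70 for the furan animals, which overlapped. Other genes of the mitotic spindle were measurable. Of 27 tested, 9 rose and 0 fell, 33.3% against the 4.18% of all features, with a median log2 fold change of 0.96, or 1.12 without vehicle replicate 2. This list was chosen with earlier results of these data known, so the share is a description only. The checkpoint gene Mad2l1 rose by 0.97 ± 0.09, a call that held in all 8 fits without 1 array, although its other probes gave 0.43 and -0.23. The call of the cytokinesis gene Ect2, at 1.24 ± 0.18, ended without furan replicate 41. The number of called spindle genes was 2 without vehicle replicate 4, vehicle replicate 6, furan replicate 41 or furan replicate 43, 3 without furan replicate 42 or 44, 5 without vehicle replicate 2, and 8 without vehicle replicate 3.

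Sulf2 encodes an extracellular enzyme that removes sulfate groups from heparan sulfate and so alters growth factor binding. Its levels were 1.65, 2.26, 2.05 and 2.12 in the controls and 2.24, 1.94, 1.97 and 2.09 after furan. The furan values fell within the range of the controls. The change was 0.04 ± 0.15, with a confidence interval of -0.30 to 0.38 (adjusted p = 0.858). The interval spans 0.815-fold to 1.31-fold and ends below that of Aen. It holds for the main scaling only, since with the median shift the log2 fold change was 0.53, above its upper end. Without vehicle replicate 2, the lowest array, the log2 fold change was -0.08. Of 22 other heparan sulfate genes 1 rose and 0 fell. It was Gpc1, a membrane-anchored heparan sulfate proteoglycan gene, at 0.96 ± 0.16 (adjusted p = 0.0227), a call lost without vehicle replicates 4 and 6 and furan replicates 42, 43 and 44.

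Dcxr encodes L-xylulose reductase, which also reduces reactive dicarbonyls. Its levels were 4.87, 5.51, 5.16 and 5.53 in the controls and 5.57, 5.22, 5.50 and 5.53 after furan. The groups overlapped, and the lowest value was again that of vehicle replicate 2. The change was 0.18 ± 0.17, with a confidence interval of -0.20 to 0.57 (adjusted p = 0.490), and 0.05 without that replicate. With the median shift it was 0.67, above the upper end of that interval. Among 13 other genes of the glucuronate and xylulose pathway 2 rose and 1 fell, with a median of 0.08, or -0.03 and 1 call without vehicle replicate 2. Ugdh, which makes UDP-glucuronate, rose by 1.04 ± 0.15, and the glucuronidase gene Gusb rose by 0.50 ± 0.11. Xylb, the xylulokinase that acts after Dcxr, fell by 0.42 on the log2 scale (adjusted p = 0.0336). The Gusb and Xylb calls held in 0 of 8 fits that left out an array, and the Ugdh call was lost without furan replicates 41, 43 and 44.

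The position on the slide offered a further view of the same arrays. Each of the 4 slide columns held 1 vehicle and 1 furan array. Phlda3 was higher on the furan array in all 4 columns, by 3.04 to 4.27, and Aen was too, by 1.38 to 1.67. Ei24 was also higher in 4 of 4 columns, but by 0.01 to 0.71. Perp was higher in 1 of 4 columns and Phlda1, Psrc1, Sulf2 and Dcxr in 2 of 4. With the column as a block in limma the log2 changes of Phlda3 and Aen were the same, their unadjusted p-values were 2.06e-05 and 2.84e-05, and their adjusted p was 0.0787 for each, so neither was called. In that fit 0 of 24921 features passed, the lowest adjusted p of all was 0.0714, and 4723 had an unadjusted p under 0.05. Within the slide rows, each with 2 arrays of either group, the log2 change was 3.91 and 3.34 for Phlda3 and 1.54 and 1.55 for Aen, but 0.53 and -0.37 for Phlda1.

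**Figure D3:**
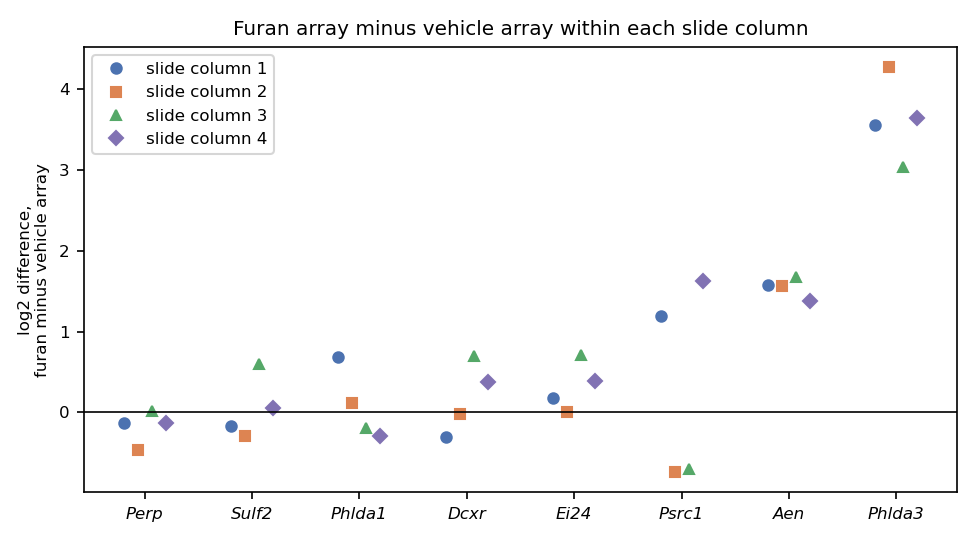
Furan array minus vehicle array within each of the 4 slide columns (y axis, log2 difference), for each tested gene. All 4 points of Phlda3 (3.04 to 4.27) and Aen (1.38 to 1.67) lie well above 0, the points of Ei24 run from 0.01 to 0.71, and the points of the other 5 genes fall on both sides of 0.

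Both calls stood in each fit that left out 1 array. The Phlda3 change then ranged from 3.45 to 3.77 and its limma adjusted p from 0.00200 to 0.00912. For Aen the change ranged from 1.51 to 1.58 and the adjusted p from 0.00181 to 0.00741. In the authors' deposited table Phlda3 had 8.43, 8.29, 8.38 and 8.18 for the controls and 11.17, 11.45, 12.18 and 11.79 after furan, a log2 difference of 3.33. Aen had 13.17, 12.89, 13.15 and 12.96 against 14.59, 14.39, 14.48 and 14.46, a difference of 1.44. Both sets were again free of overlap.

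Other p53 targets, a list of 34 genes without the members, had 32 tested genes. Of these, 14 rose and 1 fell, 46.9% against 4.18% of all features, with a median log2 fold change of 0.51, or 0.73 without vehicle replicate 2. The list, like all lists here, was chosen with earlier results of these data known, so its share is a description only. The cell cycle inhibitor gene Cdkn1a rose by 4.66 ± 0.23, the death receptor gene Tnfrsf10b by 2.45 ± 0.22 and the stress cytokine gene Gdf15 by 2.60 ± 0.26. The p53-induced zinc finger gene Zmat3 rose by 1.64 ± 0.11, the cyclin gene Ccng1 by 1.35 ± 0.12 and the growth restraint gene Btg2 by 1.48 ± 0.15. These 6 calls held in all 8 fits without 1 array, though another kept probe of Cdkn1a gave -0.59. Ddb2, named after its value was seen, was the 1 that fell, by 0.47 on the log2 scale, and its call was lost in each of those fits. Rps27l and Plk2, also named after their values were seen, rose by 0.48 ± 0.10 and 1.01 ± 0.14. Their calls held in 0 and 6 of the 8 fits. The brightest genes of the list that did not pass, Plk3 and Dglucy, had log2 fold changes of 0.39 and 0.30. With the median shift 5 of the list were called, and 1 of the spindle list.

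Among p53 itself and its regulators, 1 of 21 tested genes rose and 0 fell, 4.76% against 4.18% of all features. It was the mitotic kinase gene Aurka at 1.63 ± 0.30, also a spindle gene, whose call held only without vehicle replicate 3. Of 25 genes of the PI3K and Akt pathway, on which the PHLDA3 protein acts, 0 passed (limma; 6 at an unadjusted p under 0.05), with a median of 0.00. Akt2 had a log2 fold change of 0.07 and the insulin receptor substrate gene Irs2 one of -0.30. Of 26 tested immediate early genes, the class with which Phlda1 is often grouped, 6 rose and 0 fell, 23.1% against 4.18% of all features. That list too was chosen with earlier results of these data known. Among the 6 was Fosl2 at 1.18 ± 0.14, although its other kept probe gave -1.21. Btg2, already counted among the p53 targets, was also among them. Jun rose by 2.19 ± 0.17 and Atf3 by 2.69 ± 0.32, calls that held in all 8 fits without 1 array. The Dusp6 call was lost without vehicle replicate 6 or furan replicate 41, 42 or 43, and the Jund call held only without vehicle replicate 2. The list had 3 calls with the median shift, 0 with the slide column as a block, and 4 without vehicle replicate 6 or furan replicate 41, 42 or 43. The median of that list was 0.66, while Phlda1 was at 0.08.

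**Figure D4:**
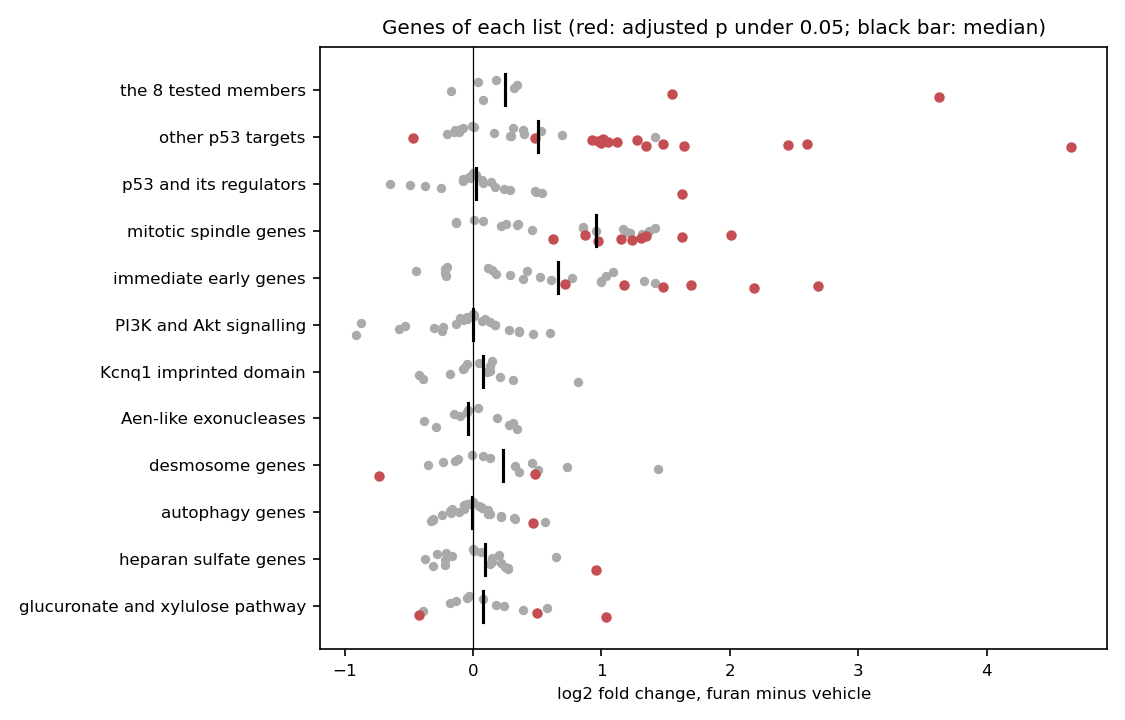
Log2 fold change, furan minus vehicle (x axis), of each tested gene in 11 lists and of the 8 tested members (rows); red points passed an adjusted p of 0.05 and black bars are medians. The members' median is 0.25, that of the other p53 targets 0.51, that of the spindle genes 0.96 and that of the PI3K and Akt genes 0.00.

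The 3 genes whose levels ran most like those of each called member were sought over the 8 arrays. For Phlda3 they were Cdkn1a, the lipolysis cofactor gene Abhd5 and the iron-sulfur protein gene Cisd2, with Pearson r of 0.991, 0.989 and 0.989. For Aen they were the focal adhesion kinase gene Ptk2, Cdkn1a and Cisd2, at 0.993, 0.991 and 0.991. For each of these genes all furan arrays lay above all vehicle arrays, so these values describe mainly that each gene differed between the groups. With the group means removed, r was 0.54, 0.58 and 0.47 for Phlda3 and 0.66, 0.28 and 0.43 for Aen. Phlda3 and Cdkn1a were both highest on furan replicate 43, at 3.53 and 2.67, but the other furan arrays ran in another order, with Phlda3 lowest on replicate 41 and Cdkn1a lowest on replicate 42.

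No single marker of a liver cell type was called. With the main scaling the mean level of the endothelial list was lower on all furan arrays than on all vehicle arrays. Of 60 tested markers in 6 lists, of hepatocytes, bile duct, macrophages, sinusoidal endothelium, stellate cells and fibroblasts, and lymphocytes and neutrophils, 0 passed (limma; 8 at an unadjusted p under 0.05). The mean level of the hepatocyte list was 8.86 to 9.23 in the controls and 8.97 to 9.13 after furan. For macrophages it was 2.75 to 4.14 and 2.93 to 3.36, and for bile duct -2.45 to -1.21 and -2.75 to -2.04. It was 0.29 to 0.59 and 0.40 to 0.66 for stellate cells and fibroblasts, and -0.61 to -0.38 and -0.85 to -0.54 for lymphocytes and neutrophils. The endothelial list was at 1.80 to 1.99 in the controls and 1.55 to 1.77 after furan, without overlap. Of its 10 markers 2 had a positive log2 fold change, against 1 of 10 for macrophages and 1 of 8 for lymphocytes and neutrophils. It was 3 of 12 for hepatocytes, 3 of 9 for bile duct and 8 of 11 for stellate cells and fibroblasts. The list means were not computed with other scalings. The endothelial median log2 fold change was -0.19, while that of all features was -0.09 here and 0.39 with the median shift. A difference of this size thus depends on the scaling. Its part in the changes of Phlda3 and Aen was not tested. Cftr and Cd8a were not above background, and Cd68 and Ly6g had no matched probe.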

How the data were processed

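Total RNA from 8 livers was labelled with Cy3, per the labels, and each sample was hybridised to 1 array of 1 slide, Agilent array design 028005. Per the file headers, the deposited scanner files hold fluorescence intensity as written by Feature Extraction 11.0.1.1: the background-subtracted processed intensity used here, and raw spot and background medians. The authors also deposited a value table on a log2 scale, whose method and centring are not given in the sources used here. Each column tracks the log2 median spot intensity of its own array (r of 0.9976 or more over probes), and column medians are 6.53 to 6.74.

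From 62976 spots the 3671 controls were dropped, and spots marked as outliers were set to missing; no value of a member was missing. Each array's 75th percentile of log2 processed intensity was subtracted, and spots of a probe were averaged. A probe had to be well above background on 4 or more of 8 arrays, which kept 33848 of 55681 probes, and the brightest kept probe stood for a gene. Symbols came from RefSeq accessions through a table for GRCm38.p6. Array annotation is on mm9, so no gene positions are printed, and promoter windows are credited to RefSeq on GRCm38.p6. RefSeq lists 2 to 4 transcripts for Aen, Ei24, Psrc1, Gtse1, Sulf2 and Dcxr, and which of them a probe reads was not examined.

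Groups were compared by limma 3.58.1 in R 4.3.3, 2-sided, with group as the only term, since the labels name a randomized block design without the blocks. Alternatives were other scalings, background corrections, filters, probe rules, variance models, blocks by slide row or column, leaving out each array, a stricter threshold and treat. A shift on the brightest 25% of genes was added after seeing the data. On simulated data with 200 changed among 24921 genes, 16 of 67 set to 1.5-fold were recovered. The recovery was 37 of 67 at 2-fold and 56 of 66 at 4-fold, and 3 unchanged genes were called. Each simulated gene was drawn independently with its own mean and SD, without effects shared by an array. These counts hold for that setting only. The members, gene lists and rule for named genes were chosen with earlier results of these data known. The rule took all members, up to 6 called genes a list with up to 2 bright others, of which most are given as counts, and the 3 genes most like each called member. The number of arrays limits precision. Figures were drawn in Python 3.11.15 (matplotlib 3.10.9, pandas 2.3.3, numpy 2.4.6).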

Additional observations from a re-analysis of the deposited data

Results flagged for a closer look

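The Aen level of vehicle replicate 4, at 4.31, lay apart from the other controls, which were at 4.16 to 4.18. On the second Aen probe the level of furan replicate 41, at 5.60, lay apart from the other furan animals, at 5.45 to 5.47. Both exceeded Dixon's 95% critical value for 4 samples, with ratios of gap to range of 0.851 and 0.846. Of 22 groups of 4 examined for the 11 probes of the members, 2 did so, and chance flags about 1 in 20. Both gaps are small beside the distance of 1.38 between the groups.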

How the results depend on the processing

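The count of all called features was 86 when arrays were shifted to their medians, 261 when unshifted, 163 for unfiltered probes, 1733 with the filter on all 8 arrays, 1668 in the authors' value table, 2007 with trend and robust, 2043 with array weights, 101 at an adjusted p under 0.01, 22 with treat against 1.5-fold and 0 with the slide column as a block, against 1041. It ranged from 195 to 927 without 1 array. The number of called members stayed 2 in all alternatives but the slide column as a block, where it was 0. Genes called in the further lists, 36 in all, numbered 10 with a median shift, 22 without a shift, 0 with the column block and 18 to 29 without 1 array. The difference between the Phlda3 and Phlda1 changes was 3.29 to 3.66 elsewhere and 3.55 with the slide row (exact p = 0.0556) or column (exact p = 0.125) respected. Over all 25 alternatives the log2 fold change was 3.28 to 4.11 for Phlda3 and 1.44 to 2.03 for Aen, with limma adjusted p from 8.43e-06 and 8.21e-06 to 0.0787 for both. The groups share no replicate number, so arrays could be paired only by slide column, which ended both member calls. Psrc1 gave no value with the filter on all 8 arrays. Signal near background limits Psrc1, Phlda2 and Gtse1.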
